A study of Homo sapiens with 32 samples.

Results

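The 10 genes described here encode parts of the sarcomere, the contractile unit of striated muscle: NEB, TTN, ACTC1, ACTN2, MYH3, MYH7, TNNT1, TNNT2, TNNI1 and MYL4. They were taken by symbol from 28278 genes in the count tables and by Ensembl gene from 60199 genes in the knockdown table, and all 10 were found in both. The set was chosen with results of these libraries in view, the fall of NEB in SUZ12 KO cells being the value that led to it. Values of the SUZ12 KO libraries are therefore given below as a description. So are those of NEB in EZH2 KO and in other comparisons that draw on the same control libraries. Where a count of calls takes in these values, it is printed beside the share of all genes called and nothing is read from it.

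The data are RNA-seq of Ewing sarcoma cell lines, a bone and soft tissue tumour of young people driven by an EWSR1 fusion, and they ask what loss of the cohesin subunit STAG2, its paralog STAG1 or the Polycomb subunits EZH2 and SUZ12 does to expression. The A673 clones all descend from 1 clone with an inducible Cas9 at the AAVS1 site. That clone, unedited, is the WT clone, and the parental line is A673 without the insertion. Experiment 1 holds 2 libraries of the WT clone, 1 of the parental line and 2 of STAG2 KO. Experiment 2 holds 2 of the WT clone, 1 parental and 3 each of EZH2 KO, SUZ12 KO and STAG2 KO, and experiment 3 holds 1 of the WT clone, 1 parental and 3 of STAG1 KO. Within an experiment each KO library is named for another clone, while the WT clone libraries of 1 experiment come from the same clone, so their spread may be technical. The numbers 5 and 24 of the STAG2 KO libraries of experiment 1, and n1, n5 and n7 of STAG1 KO, are names in the tables that match no clone number in the labels of those experiments. Whether number 5 is the same clone in experiments 1 and 2 is not known. In experiment 4, A673 cells with siRNA against STAG2 (siSTAG2) were set against controls, 3 libraries each. SK-N-MC cells with STAG2 (WT) and without it (KO) gave 1 library each, as did A4573 cells, whose WT line lacks STAG2 and was compared with a line in which STAG2 was restored by knock-in.

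The 22 A673 clone and parental libraries held 15734628 to 20663679 counts, the 4 libraries of the pairs 29322507 to 32261248. A count of 0 allows up to 3 counts, which as CPM, the count scaled to a common library size, is 0.145 to 0.191 in the A673 libraries, for counting error only. The targeted gene was lower in its KO libraries in each arm except STAG1, where the library labelled STAG1 KO n1 held 62.7 CPM of STAG1 against 59.2 and 70.3 CPM in the controls and the other STAG1 KO libraries 15.5 and 33.9 CPM. In experiment 1, STAG2 stood at 43.1 and 185 CPM in the STAG2 KO libraries.

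Sarcomeres are built of thick filaments of myosin heavy and light chains sliding along thin filaments of actin, which troponin and tropomyosin make sensitive to calcium. Thin filaments are anchored by alpha-actinin at the Z-disc, while titin spans the sarcomere as a spring and nebulin runs along the thin filament. These genes are switched on by the MyoD family of factors in skeletal muscle and by GATA4, NKX2-5, TBX5 and MEF2 in the heart. Striated muscle was not the tissue sampled, and its defining markers were near 0: MYOD1, MYOG and MYF6 reached at most 1 count in any of the 22 A673 libraries and ACTA1, skeletal muscle actin, at most 3. Markers of differentiated muscle were low but not absent, with up to 4.85 CPM of CKM, muscle creatine kinase, 1.94 CPM of MB, myoglobin, and 1.01 CPM of DES, desmin. PAX7, a factor of muscle stem cells, was present at 12.1 to 155 CPM and NKX2-5 at 7.05 to 18.8 CPM. Only 6 of the 10 genes exceeded 3 counts in any A673 library, against 9 of 10 in the pairs.

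The sequences just upstream of the start sites are shown for the 4 genes with an entry on which the comparisons below turn. Each is the 250-base window before the annotated start in RefSeq GRCh38.p14, written 5′ to 3′ on the gene's strand, and capitals mark E-boxes (CANNTG, the motif read by MyoD-type factors, which matches on both strands). NEB lies at chr2:151734477-151734726 on the minus strand, TNNT1 at chr19:55149207-55149456 on the minus strand, ACTN2 at chr1:236686249-236686498 on the plus strand and TNNT2 at chr1:201377681-201377930 on the minus strand.
NEB: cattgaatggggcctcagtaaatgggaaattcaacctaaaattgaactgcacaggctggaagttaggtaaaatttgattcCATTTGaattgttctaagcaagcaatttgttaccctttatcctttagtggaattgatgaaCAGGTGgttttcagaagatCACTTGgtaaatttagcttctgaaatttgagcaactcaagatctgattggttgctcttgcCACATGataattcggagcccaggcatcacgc
TNNT1: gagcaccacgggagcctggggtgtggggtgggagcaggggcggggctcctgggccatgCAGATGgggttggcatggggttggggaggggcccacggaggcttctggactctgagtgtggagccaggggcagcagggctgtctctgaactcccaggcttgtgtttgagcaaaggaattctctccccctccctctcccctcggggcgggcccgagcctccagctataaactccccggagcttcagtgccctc
ACTN2: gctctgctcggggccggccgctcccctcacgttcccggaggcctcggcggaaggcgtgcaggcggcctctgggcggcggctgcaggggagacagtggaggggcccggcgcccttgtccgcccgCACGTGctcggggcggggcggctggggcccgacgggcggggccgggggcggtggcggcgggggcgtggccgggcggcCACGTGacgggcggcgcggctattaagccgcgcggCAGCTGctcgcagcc
TNNT2: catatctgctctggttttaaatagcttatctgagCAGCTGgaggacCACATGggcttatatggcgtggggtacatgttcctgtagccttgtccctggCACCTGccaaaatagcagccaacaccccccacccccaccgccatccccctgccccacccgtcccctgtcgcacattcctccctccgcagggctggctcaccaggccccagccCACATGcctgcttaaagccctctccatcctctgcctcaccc
The windows differ in base composition. That of ACTN2 holds 38 CpG and 81.6% GC, above 97.3% of 35114 promoters in CpG, while that of NEB holds 2 CpG and 39.2% GC. The median window has 11 CpG and 58% GC. E-boxes number 4 in NEB, 1 in TNNT1, 3 in ACTN2 and 4 in TNNT2, and 61.8% of all windows have at least 1. GGAA, the core of the ETS motif on which the Ewing fusion acts in repeats, occurs in all 4 windows and in 92.7% of all promoters. Its tandem GGAAGGAA, present in 3.06% of promoters, is in none of the 4, nor are the MEF2 motif (2.80%) or the CArG box (1.16%). TATAAA occurs in TNNT1 and in 10.7% of promoters. Motifs were searched on both strands. The window of ACTN2 lies inside the longer gene span of the GENCODE annotation, and those of NEB and TNNT2 overlap their gene spans in part. Entries were found for 6 of the 10 genes, and a match describes letters in a window only.

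Levels per length differed widely among the 10 genes. As a mean over the 22 A673 libraries, per kilobase of the canonical transcript, TNNT1 stood at 33.4 CPM, ACTN2 at 5.23, TNNT2 at 0.728, MYH3 at 0.511 and NEB at 0.212. The median of NEB was lower, at 0.0249 CPM per kilobase, since a few libraries held most of its reads. The NEB transcript is 26191 bases long in 182 exons, libraries were primed at the poly(A) tail, and how far its reads extend from the tail cannot be seen in gene counts. Reads carry no strand, and NEB shares 318 exonic bases with RIF1 on the opposite strand, while TTN shares 14004 with TTN-AS1. ACTC1 (cardiac actin), MYH7 (slow myosin), MYL4 (atrial light chain) and TTN reached at most 2 counts in any of the 22 A673 libraries and TNNI1 (slow troponin I) at most 6, so no change of theirs was detectable there.

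**Figure D1:**
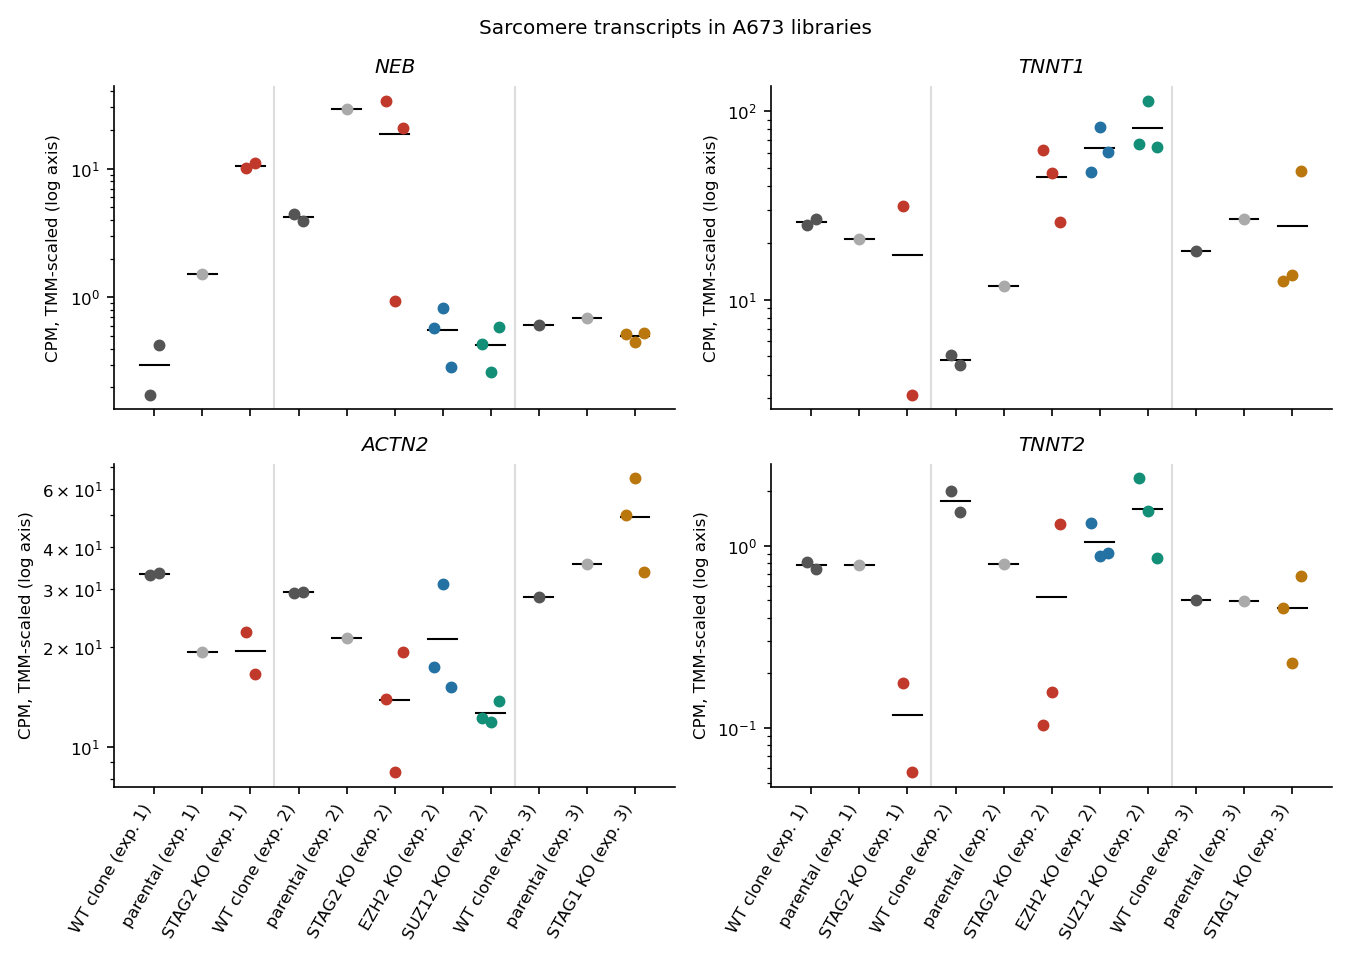
CPM (log axis) of NEB, TNNT1, ACTN2 and TNNT2 in each A673 clone and parental library, grouped by experiment and arm, with 1 point per library. NEB is at 29.3 CPM in the parental library of experiment 2 and at 0.264 to 0.821 CPM in the EZH2 KO and SUZ12 KO libraries. TNNT1 is at 47.7 to 114 CPM in these KO libraries against 4.50 to 11.8 CPM in the controls of experiment 2.

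NEB, which encodes nebulin, ranged from 0.175 to 33.8 CPM over the 22 A673 libraries. In experiment 2 the WT clone held 4.41 and 3.95 CPM and the parental line 29.3 CPM. EZH2 KO libraries held 0.573, 0.821 and 0.286 CPM. All 3 EZH2 KO libraries lay below all 3 controls, at 6 to 15 counts each. The log2 fold change was −4.47 (SE 1.17). SUZ12 KO libraries held 0.430, 0.264 and 0.591 CPM, a log2 fold change of −4.85, against the same controls. Controls of experiment 2 were higher in NEB than those of the other experiments. Both KOs lay within the 0.175 to 1.51 CPM of the controls of experiment 1, and those of experiment 3 held 0.614 and 0.690 CPM. The size of both falls thus depends on the level of the experiment 2 controls. EZH2 is the methyltransferase of Polycomb repressive complex 2 and SUZ12 a scaffold subunit of it, and NEB differed by a log2 of 0.38 between their KOs. Without the parental library the log2 fold change in EZH2 KO was −2.90, so that 1 control decides much of its size. RIF1, the overlapping gene, had a log2 fold change of −0.34 in EZH2 KO (adjusted p = 0.294 in edgeR's quasi-likelihood test with Benjamini-Hochberg adjustment over 15130 genes).

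In STAG2 KO cells NEB did not take the same values in the 2 experiments. Experiment 1 had 0.175 and 0.423 CPM in the WT clone, 1.51 CPM in the parental line and 10.1 CPM in STAG2 KO library 5 and 10.99 CPM in library 24. Both KO libraries were above the controls there, with a log2 fold change of 3.86 (SE 0.727, edgeR adjusted p = 0.0197 within experiment 1). In experiment 2 STAG2 KO clones 3, 5 and 2 held 33.8, 0.945 and 20.8 CPM. Clone 5 was below all controls, clone 3 above them and clone 2 between the WT clone and the parental line. The experiment 2 controls are among the values that led to NEB, so fits that include them are a description. Within experiment 2 the log2 fold change was 0.54 (SE 1.15) and over both experiments 1.97 (SE 0.990), neither of them called. Without clone 5 of experiment 2 the fit over both gave 2.40, which edgeR called. Leaving out that clone raised the calls over all genes from 1687 of 13574 to 4048 of 13670, so the gain was not particular to NEB. STAG2 KO exceeded EZH2 KO in experiment 2 by a log2 of 5.03 (SE 1.19), given as a description. Clone 5 lay close to the highest EZH2 KO library, at 0.945 against 0.821 CPM.

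Among unedited cells NEB was lower in the WT clone than in the parental line in each experiment, at 0.614 against 0.690 CPM in experiment 3. The log2 fold change was −2.34 (SE 0.359), and −1.43 without the parental library of experiment 2. The edgeR call counted below was lost without that library, or without WT clone library 1 or 2 of that experiment. The controls of experiment 2 are among the values that led to NEB, so this comparison is a description. The libraries labelled STAG1 KO held 0.518, 0.451 and 0.526 CPM, all below both controls, with a log2 fold change of −0.39 (SE 0.395, edgeR adjusted p = 0.584). In these bulk libraries, fewer cells with a transcript and less transcript per cell cannot be told apart.

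Markers of neural crest and neurons also differed between groups. Their summed level over 6 listed genes, of which SOX10 was at 0 and TUBB3 the highest at 67.7 to 531 CPM, was 103 to 224 CPM in the controls of experiment 1 and 459 and 556 CPM in its STAG2 KO libraries. In experiment 2 it was 351 to 418 CPM in controls, 197 to 247 CPM in EZH2 KO and 167 to 219 CPM in SUZ12 KO. The sum fell in EZH2 KO although 2 of the 5 genes tested were called higher and 0 lower. STAG2 KO clones 3, 5 and 2 of experiment 2 held 329, 112 and 443 CPM. The sum did not follow NEB in every library, since clone 3, highest in NEB, lay below the controls. In experiment 3 the sum was higher in STAG1 KO, at 108 to 156 against 79.6 to 86.02 CPM, where NEB was not. Their part in the NEB values was not tested.

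TNNT1, slow skeletal troponin T, which ties troponin to tropomyosin, went the other way in the Polycomb KOs. Controls of experiment 2 held 5.06, 4.50 and 11.8 CPM, the last being the parental line. EZH2 KO libraries held 47.7, 82.0 and 60.8 CPM. All were above the controls, with a log2 fold change of 3.17 (SE 0.439, edgeR adjusted p = 0.000891). SUZ12 KO libraries held 66.8, 114 and 64.2 CPM, a log2 fold change of 3.54. In STAG2 KO clones 3, 5 and 2 of experiment 2 TNNT1 was at 61.9, 47.1 and 25.9 CPM, also above the controls (2.65, SE 0.469, edgeR adjusted p = 0.0323 within experiment 2). Experiment 1 gave another picture, with 24.8, 26.7 and 21.0 CPM in the controls and 31.5 and 3.13 CPM in STAG2 KO libraries 5 and 24. The log2 fold change was −0.50 within experiment 1 (SE 0.807, edgeR adjusted p = 0.659) and 1.38 over both (SE 0.773, adjusted p = 0.291). The difference between the experiments was 3.17 (SE 1.02, edgeR adjusted p = 0.0909), a term for which edgeR called 0 of 13574 genes (0%, with 4150 at an unadjusted p under 0.05) and DESeq2 called 2216 genes, TNNT1 among them (3.11, adjusted p = 0.0150). TNNT1 was called over both experiments without STAG2 KO library 24 of experiment 1 (2.03, edgeR adjusted p = 0.0277). STAG1 KO libraries held 12.6, 13.5 and 47.9 CPM against 26.7 and 18.1 CPM in controls, on both sides of them (0.13, SE 0.614, edgeR adjusted p = 0.918). Controls of experiment 2 were thus lower in TNNT1 than those of experiments 1 and 3, at 4.50 to 11.8 against 18.1 to 26.7 CPM. The size of the rises in experiment 2 depends on that level. EZH2 KO libraries lay above the controls of every experiment, while STAG2 KO clone 2 lay among those of experiments 1 and 3.

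TNNI3, which encodes cardiac troponin I, lies at chr19:55151767-55157773 (GRCh38), 2561 bases from TNNT1 on the same strand. It followed TNNT1 over the 22 A673 clone and parental libraries. Of 13394 genes it had the highest correlation with TNNT1 over the 22 A673 libraries, taken on log2 CPM minus the controls of the same experiment (Pearson r 0.97), followed by CACNG8 (0.96), DOC2B (0.95), SIRT4 (0.95) and TMEM159 (0.94). These libraries share experiments and controls, so the values describe likeness alone. In experiment 2, TNNI3 stood at 2.10, 1.40 and 5.40 CPM in controls and at 9.69, 17.8 and 14.7 CPM in EZH2 KO (2.25, SE 0.622, edgeR adjusted p = 0.0310). STAG2 KO library 24 of experiment 1, lowest in TNNT1, was also lowest in TNNI3 at 0.570 CPM. Outside these libraries the likeness was partial. With siSTAG2, TNNI3 had a log2 fold change of −0.25 and was not called, where TNNT1 was called lower. In SK-N-MC TNNI3 held 105 counts without and 116 with STAG2, where TNNT1 was higher without it. In A4573 TNNI3 held 4 and 21, lower without STAG2 as TNNT1 was. The genes most like NEB by the same correlation over the 22 libraries were GNB1 (0.95), MYO1C, CRIM1, CRY1 and XPO6 (0.94 each). Between members, r was −0.67 for NEB and TNNT1, −0.57 for ACTN2 and TNNT1 and 0.24 for NEB and ACTN2. The 22 libraries take in the SUZ12 KO libraries and their controls, whose NEB values led to the set, so r for NEB is a description.

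**Figure D2:**
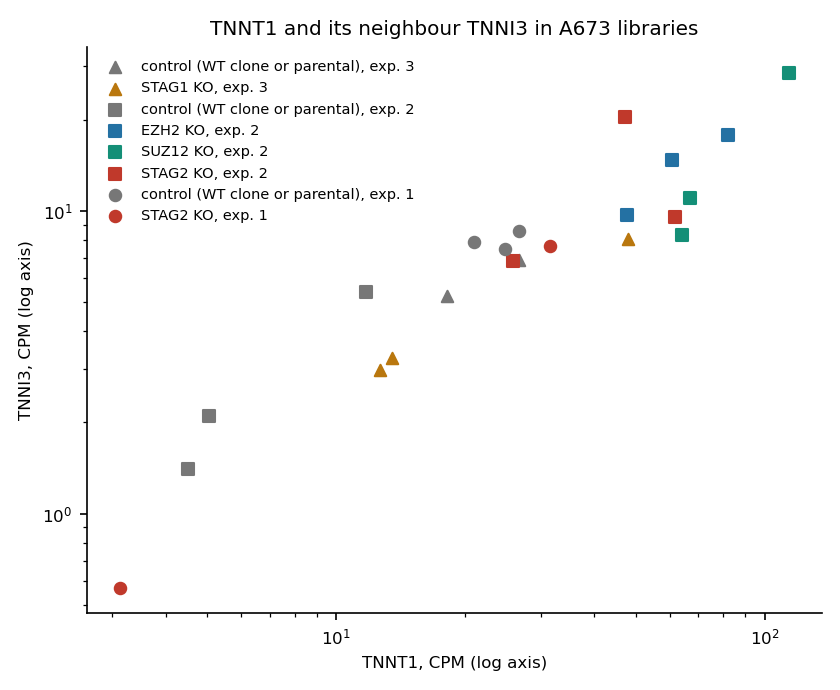
TNNI3 CPM against TNNT1 CPM (log axes), 1 point per A673 library, coloured by arm and shaped by experiment. The 2 troponin genes rise and fall together across the 22 libraries.

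ACTN2, the muscle alpha-actinin of the Z-disc, held 33.0, 33.4 and 19.4 CPM in the controls of experiment 1 and 22.3 and 16.6 CPM in STAG2 KO. In experiment 2 the controls held 29.2, 29.4 and 21.4 CPM and the STAG2 KO clones 14.0, 8.40 and 19.3 CPM. All 3 clones of experiment 2 were below the controls, while in experiment 1 the groups overlapped. Over both the log2 fold change was −0.77 (SE 0.233, edgeR adjusted p = 0.0527), and DESeq2 gave an adjusted p of 0.0151. EZH2 KO libraries held 17.5, 31.0 and 15.2 CPM (−0.31, SE 0.319, edgeR adjusted p = 0.537) and SUZ12 KO libraries 12.3, 11.9 and 13.7 CPM (−1.06). STAG1 KO libraries held 49.98, 64.7 and 33.8 CPM against 35.7 and 28.3 CPM in controls (0.62, SE 0.277, edgeR adjusted p = 0.230). The STAG2 KO effect minus the STAG1 KO effect was −1.43 (SE 0.426, edgeR adjusted p = 0.0649), with DESeq2 at an adjusted p of 0.0174.

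TNNT2, cardiac troponin T, was low throughout. In experiment 1 it held 14, 14 and 15 counts in controls and 3 and 1 in STAG2 KO, a summed ratio of 0.149 (95% exact counting interval 0.0388 to 0.409). The KO libraries were below every control. The edgeR adjusted p within experiment 1 was 0.0286. In experiment 2 controls stood at 1.99, 1.52 and 0.794 CPM and STAG2 KO clones 3, 5 and 2 at 0.104, 0.157 and 1.31 CPM, so that clone 2 lay within the controls. Over both experiments the log2 fold change was −1.87 (SE 0.639, edgeR adjusted p = 0.0834), reaching an adjusted p of 0.00293 without clone 2 of experiment 2. EZH2 KO libraries held 1.34, 0.876 and 0.907 CPM (−0.45, SE 0.743, edgeR adjusted p = 0.714) and SUZ12 KO libraries 2.34, 1.54 and 0.859 CPM (0.16), both overlapping the controls. MYH3, embryonic myosin heavy chain, ranged from 1.36 to 4.71 CPM over the 22 A673 libraries, and its log2 fold changes were 0.06 in STAG2 KO, 0.18 in EZH2 KO and −0.44 in STAG1 KO, none of them called.

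Counted over the set, 5 of the 10 genes could be tested in STAG2 KO, EZH2 KO and SUZ12 KO. In EZH2 KO, 1 was called higher, TNNT1, and 1 lower, NEB, beside 12% of all genes tested in the upward and 3.69% in the downward direction. For STAG2 KO edgeR called 0 (2 at an unadjusted p under 0.05), where 6.67% of genes were higher and 5.76% lower. DESeq2 called 2 there, beside 2621 of 20726 genes. In STAG1 KO 0 of 4 were called by edgeR or DESeq2 (0 at an unadjusted p under 0.05), where 2.77% of genes were higher and 2.5% lower. In SUZ12 KO, the comparison that chose the set, 1 was higher and 2 lower, NEB among them, beside 14.7% and 5.87% of all genes. Between STAG2 KO and EZH2 KO 1 was called higher, NEB, beside 8.04% higher and 12.4% lower, and between STAG2 KO and SUZ12 KO 1 higher, again NEB, whose SUZ12 KO values chose the set, beside 11.2% and 14.5%. EZH2 KO against SUZ12 KO gave 0 by edgeR and DESeq2 (1 at an unadjusted p under 0.05), where 0% and 0.00661% of all genes were called. For the STAG2 KO effect minus the STAG1 KO effect edgeR called 0 (1 at an unadjusted p under 0.05) beside 2.36% and 3.75%, and DESeq2 called 1, beside 1541 of 21528 genes. For the WT clone against the parental line 1 was lower, NEB, whose experiment 2 controls led to the choice, beside 1.76% higher and 0.96% lower. The STAG2, EZH2 and SUZ12 comparisons of experiment 2 share their controls. Median log2 fold changes of the members tested were −0.31 in EZH2 KO and 0.06 in STAG2 KO, against 0.04 over all genes in each.

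**Figure D3:**
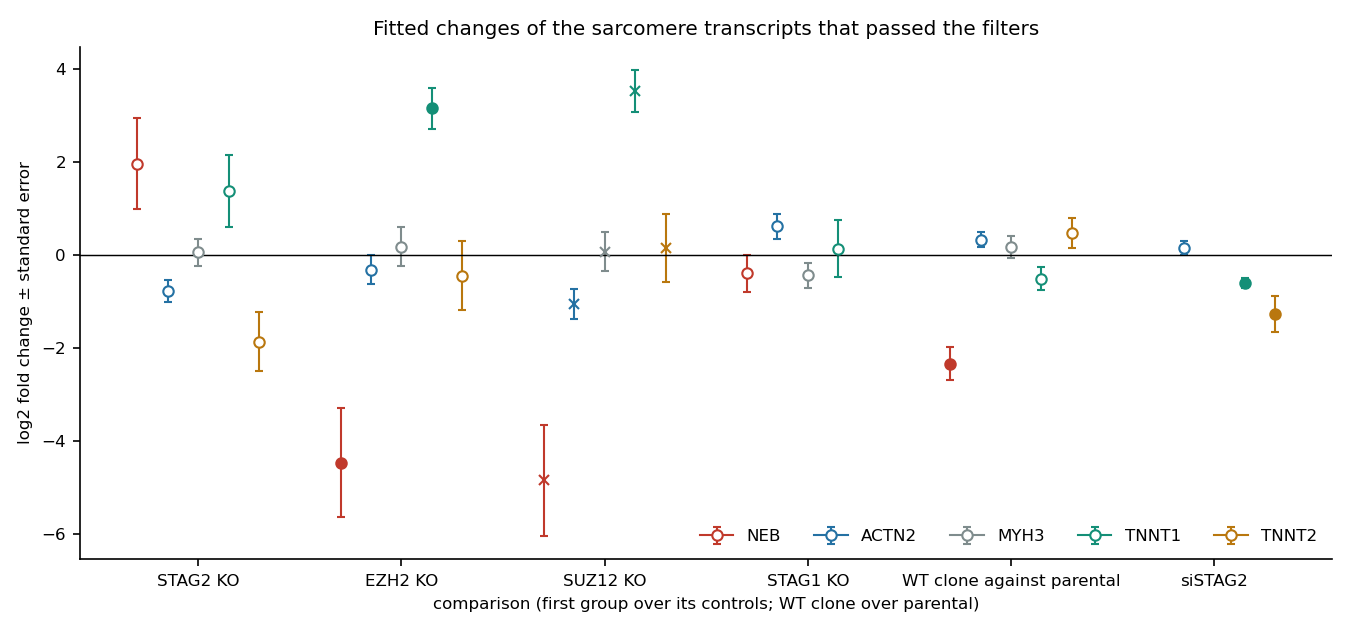
Log2 fold change of the tested genes in each comparison, with SE bars. Filled circles passed an adjusted p of 0.05, open circles did not, and crosses mark SUZ12 KO, shown without a call. NEB in STAG2 KO, in EZH2 KO and in the WT clone against the parental line draws on the controls on which it was chosen. NEB and TNNT1 lie on opposite sides of 0 in EZH2 KO, at −4.47 and 3.17.

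Other muscle genes were read from lists of the contractile apparatus. In EZH2 KO, thin filament genes numbered 9 tested of 17 listed, 3 higher and 2 lower, with a median of −0.10, and Z-disc and M-band genes 16 of 33, 3 higher and 1 lower, with a median of 0.39, beside 12% and 3.69% of all genes and a median of 0.04. Thick filament genes were mostly silent, with 3 of 18 tested and 1 higher. Muscle transcription factors gave 3 higher and 2 lower of 18 tested, and excitation-contraction coupling and metabolism genes 3 higher and 1 lower of 12. TPM1, a tropomyosin of the thin filament, fell from 108 to 173 CPM in controls to 11.2 to 21.3 CPM in EZH2 KO (edgeR adjusted p = 0.00180). GATA4, a cardiac factor, was at 0 to 0.0608 CPM in controls and 31.0 to 57.1 CPM in EZH2 KO (edgeR adjusted p = 2.67e-06). PDLIM3, a Z-disc protein, and RYR1, the calcium release channel of skeletal muscle, were called higher too, at 1.43 to 5.47 CPM and 1.72 to 4.63 CPM. The summed level of 8 cardiac markers, TNNI3 and GATA4 among them and MYL7, NPPA and NPPB at most 1 count in any A673 library, was 60.8 to 90.8 CPM in EZH2 KO and 10.3 to 20.2 CPM in controls, that of 8 skeletal markers 87.9 to 127 against 44.8 to 48.4 CPM. GATA4 made most of the cardiac rise, and TNNI3 stood at 9.69 to 17.8 CPM in EZH2 KO against 1.40 to 5.40 CPM in controls. PAX7 carried most of the skeletal sum, the other 7 markers reaching at most 4.85 CPM in any A673 library. Their part in the TNNT1 values was not tested. In STAG2 KO, 1 Z-disc gene was higher and 2 lower of 14 tested, PALLD and PDLIM5 being the lower ones, beside 6.67% and 5.76% of all genes. CACNA1C, lower in EZH2 KO as well, was at 0 to 0.312 CPM in STAG2 KO against 4.54 to 15.2 CPM in controls (edgeR adjusted p = 0.000255). In STAG1 KO, TRDN, triadin of the calcium release complex, was higher at 55.9 to 92.0 against 14.1 to 15.6 CPM (edgeR adjusted p = 0.0181).

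In the knockdown, deposited values are normalized reads. STAG2 was at 1050 ± 51.4 (SD, n = 3) in controls and 159 ± 18.6 (SD, n = 3) with siSTAG2. TNNT1 held 206.8, 221.4 and 200.02 in controls and 143.1, 142.8 and 126.5 with siSTAG2. The groups did not overlap, and the log2 fold change on log2(value + 1) was −0.60 (SE 0.108), with an adjusted p of 0.000176 in limma with Benjamini-Hochberg adjustment over 12060 genes. TNNT2 held 12.4, 15.7 and 18.8 in controls and 7.77, 3.71 and 6.76 with siSTAG2, again without overlap (−1.26, SE 0.391, limma adjusted p = 0.0219). That call was lost without siSTAG2 library 2 (−0.99, adjusted p = 0.0984), and without control 2 or 3 TNNT2 fell under the mean of 10 needed for a test. ACTN2 was at 78.2, 88.6 and 95.8 against 87.6, 100.1 and 104.3 (0.15, SE 0.143, limma adjusted p = 0.502). NEB and MYH3 were under that mean, NEB at 2.95 to 7.62 in controls and 2.22 to 6.76 with siSTAG2. Of 3 genes tested 2 were called lower, beside 9.54% of all genes higher and 11% lower. ACTC1, MYH7 and MYL4 were at 0 in all 6 libraries. RIF1, which overlaps NEB, had a log2 fold change of −0.24 (limma adjusted p = 0.00422). Of the listed muscle genes TRDN rose (1.13, limma adjusted p = 0.00273), and OBSL1, a cytoskeletal linker, and PAX7 fell (−0.60 and −0.51).

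**Figure D4:**
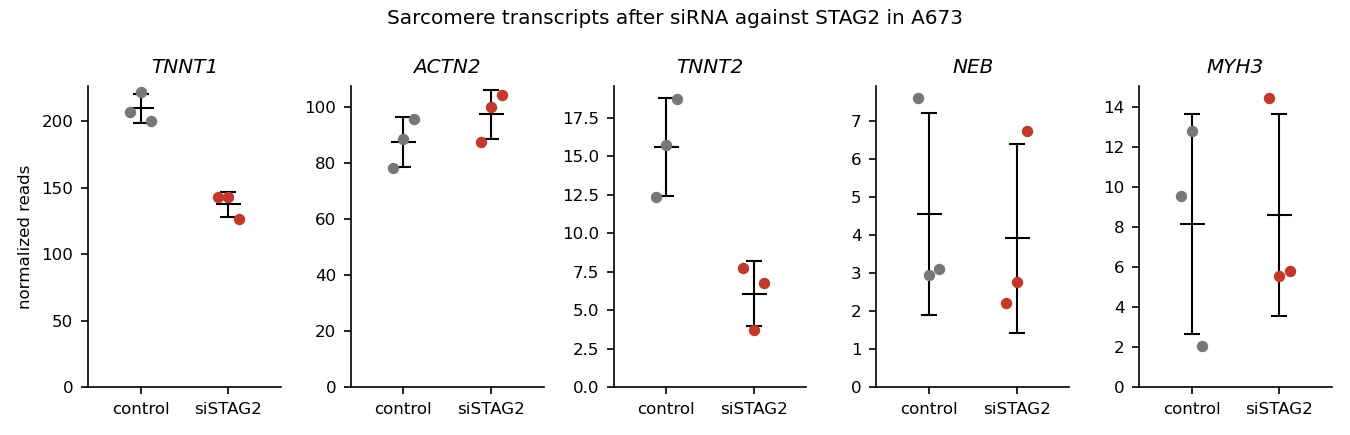
Normalized reads of the members in the 3 control and 3 siSTAG2 libraries for TNNT1, ACTN2, TNNT2, NEB and MYH3, 1 point per library, with the mean and SD as bars. TNNT1 is at 200.02 to 221.4 in controls and 126.5 to 143.1 with siSTAG2.

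The isogenic pairs have 1 library a line, so their ratios, given without STAG2 over with STAG2 and with 95% exact counting intervals, compare libraries and have no replicate check. In SK-N-MC, TNNT1 was at 133 CPM without STAG2 and 75.1 CPM with it, a ratio of 1.77 (1.69 to 1.87). In A4573 it was at 1.99 CPM without and 7.51 CPM with STAG2, a ratio of 0.265 (0.196 to 0.353), so the lines differ in direction. NEB had a ratio of 0.659 (0.467 to 0.923) in SK-N-MC, from 1.90 and 2.88 CPM, and of 3.13 (0.948 to 13.3) in A4573, from 12 and 4 counts. ACTN2 was lower without STAG2 in both pairs, at 0.828 (0.749 to 0.916) and 0.520 (0.488 to 0.553). TNNI1, near 0 in A673, held 32 counts without and 201 with STAG2 in A4573 (0.166, 0.111 to 0.242) and 0 without and 7 with it in SK-N-MC. MYL4 held 29 without and 11 with STAG2 in SK-N-MC (2.84, 1.38 to 6.31), and ACTC1 14 and 4. TNNT2 was at 2.06 and 5.19 CPM in A4573 (0.397, 0.291 to 0.534), and MYH3 differed by ratios of 0.914 and 1.14 in SK-N-MC and A4573, with intervals that span 1. Past 2-fold, 2 of 6 genes with at least 10 counts were higher and 0 lower in SK-N-MC, beside 10.4% and 11.2% of all genes, and 1 of 7 was higher and 3 lower in A4573, beside 7.76% and 14.1%. Of other muscle genes TPM2, a tropomyosin, held 9839 counts without and 2600 with STAG2 in SK-N-MC, and MYBPH, a myosin-binding protein, 53 and 420 in A4573.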

How the data were processed

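The deposited count tables hold counts per gene that the authors made from single-end, non-directional, oligo-dT primed reads aligned to hg38 with TopHat2 (2.0.0). The submitters' processing notes also name SAMtools at version 0.1.16 and Bowtie at 0.12.7. The counting program is not given in the sources used here. The knockdown table holds deposited signal values, normalized reads per gene that the authors scaled by size factors. Steps between values gave whole reads for 100% of them, within 0.05 reads, with 6852340 to 8184632 reads a library. No column was left unused (0).

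Counts were scaled by TMM within each table and tested with edgeR 4.0.16 (quasi-likelihood, low counts filtered, experiment as a term) in R 4.3.3, and knockdown values with limma 3.58.1 on log2(value + 1) for genes with a mean of at least 10. Called means a Benjamini-Hochberg adjusted p under 0.05. P-values measure the spread between these libraries. The WT clone libraries Ra and Rb of experiment 1 differed little beyond sampling noise (mean chi-square 1.33, against 9.41 or more for other pairs) and were kept as 2, and summed as an alternative. Alternatives were DESeq2 1.42.0, its size factors, no filter, other controls, pseudocounts, a replicate block and each library left out. The difference between experiments was added after seeing the data.

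The members and lists were chosen with earlier results of these data known. Named were all members and, of the lists, per comparison up to 4 called genes at each end with a mean of at least 1 CPM and groups that do not overlap, of which the text gives some (1 item is not reported here), and the 5 genes most like NEB and TNNT1. Sequences are from RefSeq, gene positions from GENCODE on GRCh38. Simulated counts were used to check the tests.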

Additional observations from a re-analysis of the deposited data

Results flagged for a closer look

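NEB in the parental library of experiment 2, at 29.3 CPM, stood apart from the other control libraries by Dixon's test, both among the 6 of experiments 1 and 2 and among the 8 of experiments 1 to 3. TNNT2 in STAG2 KO clone 2 of experiment 2, at 1.31 CPM, stood apart from the other 4 STAG2 KO libraries. Of 5 genes in 3 groups, 3 gave such a gap, the same NEB value being flagged in both control groups. Chance gives about 1 in 20 groups. The number of gaps cannot be set against that share, since the control groups overlap and mix the WT clone with the parental line. All 3 groups also pool experiments, and the NEB value is among those that led to the set.

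TNNT1 moved in opposite directions in every library of STAG2 KO of experiment 2 and of siSTAG2, each against its own controls, and the log2 fold changes differed by 3.26. This difference was not tested.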

How the results depend on the processing

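Over 157 alternatives for counts of members called, 124 stayed within 1.5 times the main count, 19 rose and 14 fell, and of 759 alternatives for single members none turned the direction of a called value, while 18 turned the sign of a value that was not called, TNNT1 in STAG2 KO in experiment 1 alone (−0.50 against 1.38) among them. In STAG2 KO the count of 0 became 2 with DESeq2 (beside 2621 of 20726 genes called) and 1 with the WT clone as the only control (1278 of 13562). It was 2 in experiment 1 alone (3663 of 14145), 1 in experiment 2 alone (494 of 13383), and 0 to 2 with a library left out. In EZH2 KO the count of 2 became 1 with the WT clone as the only control and was 1 to 2 with a library left out. The call lost was that of NEB each time, without the parental library or without any 1 of the EZH2 KO libraries. In SUZ12 KO, the comparison that chose the set, the count of 3 was 2 and 1 to 3, from which nothing is read. With a library left out it was 1 to 2 for STAG2 KO against EZH2 KO and against SUZ12 KO, and 0 to 2 for the WT clone against the parental line. The STAG2 KO minus STAG1 KO effect gave 1 with DESeq2 and 0 to 2 with a library left out, and the difference between experiments 1 with DESeq2. In siSTAG2 the count of 2 became 1 with no filter (TNNT2, adjusted p = 0.0521) and was 1 to 2 with a library left out. The cause was not tested. The knockdown numbers pair no libraries by the labels: same-numbered deviations correlated at 0.0257, 0.0372 and 0.00402, and control 3 correlated more with siSTAG2 library 1 (0.00561). A replicate block gave 2 members called and 2881 genes against 2476. TNNT2, at 1 to 3 counts in 4 of 5 STAG2 KO libraries, is limited by counting error.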
